A study of Mus musculus with 6 samples.

Results

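Immediate early genes are switched on within minutes of a stimulus, without new protein synthesis, and their transcripts are soon destroyed again. The 10 genes described here were chosen by name, as the spots other than controls whose gene name in the scanner files was Fos, Fosb, Jun, Junb, Egr1, Ier2, Ier3, Atf3, Dusp1 or Nr4a1. Each of the 10 genes was found and had 1 probe, so the set comprised 10 of the 21982 genes that could be named on the array and 10 of its 55681 probes. Fos was printed in 10 spots per array and the other 9 genes in 1 spot each. All 10 probes were well above background on all 6 arrays.

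The samples were jejunum from 6 male C57BL/6J mice, all given 9 Gy of radiation. VND3207, known from the labels by its code name alone, was given into the stomach at 100 mg/kg to 3 of the mice 0.5 h before the radiation, and the other 3 received the same volume of vehicle. Tissue was taken 6 h after the radiation, and each mouse was measured on 1 array with a single dye. Both groups were irradiated and tissue without radiation was not analysed here: the values compare VND3207 with vehicle in irradiated jejunum and not radiation with its absence.

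As background, growth factors, stress and damage signals reach these genes through kinase cascades that end on transcription factors already bound at their promoters, such as serum response factor with its ternary complex partners and CREB. The Fos and Jun proteins pair into the AP-1 transcription factor, Egr1 is a zinc finger factor, and Nr4a1 is an orphan nuclear receptor. Dusp1 removes the phosphates that activate the stress kinases and so limits the response. In the intestine such genes respond to injury, to feeding and to the handling of the tissue.

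Promoter sequences were taken from RefSeq on the GRCm38.p6 build, with 250 bases before and 50 after the start site, and 8 of the 10 genes matched. Those of the 3 genes whose groups did not overlap in the arrays are shown, with the short CREB site TGACG on either strand in capitals. The Dusp1 promoter lies at chr17:26508423-26508722 on the minus strand, the Junb promoter at chr8:84978699-84978998 on the minus strand and the Fosb promoter at chr7:19309996-19310295 on the minus strand.
Dusp1: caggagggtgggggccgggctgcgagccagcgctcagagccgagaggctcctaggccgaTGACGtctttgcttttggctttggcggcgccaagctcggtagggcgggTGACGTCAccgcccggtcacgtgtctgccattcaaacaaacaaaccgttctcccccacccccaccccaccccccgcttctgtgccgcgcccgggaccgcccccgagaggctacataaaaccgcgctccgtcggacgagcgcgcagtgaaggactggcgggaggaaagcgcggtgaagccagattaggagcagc
Junb: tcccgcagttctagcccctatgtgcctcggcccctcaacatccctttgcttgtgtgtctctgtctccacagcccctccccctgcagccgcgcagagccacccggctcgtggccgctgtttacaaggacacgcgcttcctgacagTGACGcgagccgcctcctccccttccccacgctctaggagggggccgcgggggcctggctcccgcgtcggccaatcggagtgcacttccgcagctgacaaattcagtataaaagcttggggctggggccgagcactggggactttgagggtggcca
Fosb: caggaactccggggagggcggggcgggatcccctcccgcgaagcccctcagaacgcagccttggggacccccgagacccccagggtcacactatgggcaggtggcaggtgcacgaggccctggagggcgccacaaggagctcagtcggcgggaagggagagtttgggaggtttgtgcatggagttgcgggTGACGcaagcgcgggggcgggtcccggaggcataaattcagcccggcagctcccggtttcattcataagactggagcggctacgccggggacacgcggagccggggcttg
The short site was in 6 of the 8 promoters (Fos, Fosb, Junb, Atf3, Dusp1 and Nr4a1) and in 20.8% of the 32851 promoters in the table. The 8 promoters were 54.0% to 72.3% GC, against a median of 52.7% over all promoters. The GC-rich motif GGGCGG was likewise in 7 of the 8 and in 35.7% of all promoters. The part of GC content in these shares was not tested. The full palindrome TGACGTCA, which contains the short site on both strands, was in the Dusp1 promoter from base -143 to -136 and in 1.79% of all promoters. None of the 8 promoters held a CArG box, the site of serum response factor, within this window, nor did any hold the AP-1 site TGANTCA, against 1.63% and 7.81% of all promoters. Where sites are this rare in all promoters, 8 promoters are too few to show that these genes lack them. Sites outside the window, or spelled otherwise than the patterns searched, were not counted. The motif matches describe letters in a window and not bound sites.

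A second sequence feature was counted in the 60-base probes. The pentamer ATTTA, a core of the AU-rich elements that mark short-lived transcripts, was in the probes of Dusp1, Egr1 and Ier3, or 3 of 10, and in 7.71% of all 55681 probes. Base composition was not taken into account, and a 60-base probe covers only part of a transcript. The part of the probe with the pentamer in capitals is shown for Dusp1 and Ier3, from bases 11 to 40 and 9 to 38 of the probe.
Dusp1: gtttttacctttATTTAtttttgtgtaggt
Ier3: cacagatATTTAttacgATTTAtagggtcg

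In the mice given VND3207, Dusp1 was the 1 member of the set that passed the test, and it was 1.42-fold higher. Junb and Egr1 were 1.39-fold and 1.68-fold higher on average and Fosb was at 0.449 of its vehicle level, but none of the 3 passed. The other 6 genes, Fos, Jun, Atf3, Ier2, Ier3 and Nr4a1, did not pass either, with log2 differences from -0.38 to 0.28. Signals are given throughout as log2 of the processed signal minus the 75th percentile of the array, differences are VND3207 minus vehicle, and a pass means an adjusted p under 0.05 (limma, Benjamini-Hochberg over the 36102 probes tested). With these rules 0.925% of all probes tested were called higher and 14.6% lower, so that 1 of 10 higher and 0 of 10 lower stand beside a background in which lower calls prevail. That background depended on the scaling: higher calls were 5.97% of all calls here, 22.3% with quantile normalization, 22.4% in the deposited table, 33.1% after smooth trends within each array were removed and 63.4% with median scaling. An unadjusted p under 0.05 was reached by 3 of the 10, Dusp1 and Junb above 0 and Fosb below, beside 4.93% of all probes above 0 and 22.2% below. The median difference was -0.08 over the members and -0.06 over all probes tested, and both changed sign after the trends were removed, to 0.06 and 0.03.

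**Figure D1:**
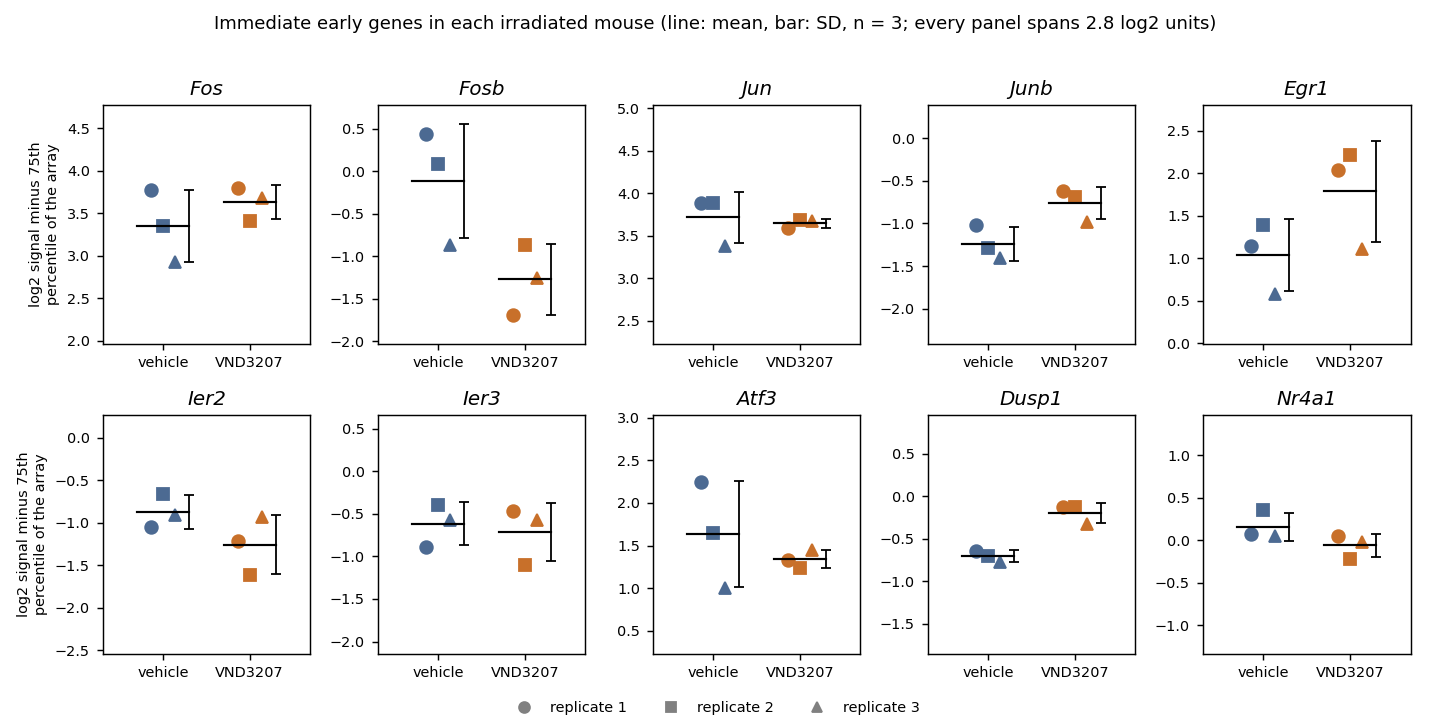
Log2 signal minus the array's 75th percentile (y axis) of each gene in the 3 vehicle mice (blue) and the 3 VND3207 mice (orange), with symbols for the replicate, a line for the group mean and a bar for the SD. Every panel spans the same number of log2 units around its own centre. Dusp1, Junb and Fosb are the genes without overlap between groups, and Fosb, Atf3 and Egr1 have widely spread points.

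Dusp1 encodes a phosphatase that switches off stress-activated kinases. Its signal was -0.64, -0.70 and -0.78 in vehicle replicates 1, 2 and 3 and -0.13, -0.13 and -0.33 in VND3207 replicates 1, 2 and 3. All VND3207 mice lay above all vehicle mice, with a gap of 0.31 between the groups. The difference was 0.51 ± 0.11 (SE, n = 3 and 3, limma adjusted p = 0.0248, 95% interval 0.25 to 0.77). The mice differed little within a group, with a pooled SD of 0.096 that was larger than that of 15.1% of the probes tested. Leaving out any 1 array other than VND3207 replicate 3 ended the call, with differences from 0.47 to 0.54 and limma adjusted p from 0.0545 to 0.0899. Subtraction of the smooth trends that each array showed along its rows and columns, with brightness and with the GC content of the probes (called the trend correction below) also ended it, at 0.43 (limma adjusted p = 0.079). The file places this probe on chromosome 17 of the mm9 build and lists only the interval from 26642526 to 26642536, which is shorter than the probe.

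Junb is an AP-1 subunit that pairs with Fos proteins. It was at -1.02, -1.29 and -1.41 in vehicle replicates 1, 2 and 3 and at -0.62, -0.68 and -0.98 in VND3207 replicates 1, 2 and 3. All VND3207 mice were again above all vehicle mice, but the gap was only 0.04, between vehicle replicate 1 and VND3207 replicate 3. The difference was 0.48 ± 0.15 (SE, n = 3 and 3, limma adjusted p = 0.103, 95% interval 0.10 to 0.85). After the trend correction Junb passed at 0.65 (limma adjusted p = 0.0361), and it did so with median scaling too, at 0.77 (limma adjusted p = 0.0218). Median scaling raised the difference of every probe alike, taking the median over all probes from -0.06 to 0.23. Its probe lies on chromosome 8 from 87501881 to 87501940 on mm9. With Dusp1, 2 of the 10 genes had all VND3207 arrays above all vehicle arrays, as did 9.41% of the probes tested.

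Fosb, a Fos relative that also pairs with Jun proteins, went the other way. Its signal was 0.44, 0.08 and -0.86 in the vehicle mice and -1.69, -0.87 and -1.25 in the VND3207 mice. The groups did not overlap, but vehicle replicate 3 exceeded VND3207 replicate 2 by only 0.006. The difference was -1.16 ± 0.38 (SE, n = 3 and 3, limma adjusted p = 0.103, 95% interval -2.08 to -0.24), the largest in size of the 10 and also one of the least precise. Fosb was 1 of 10 members with all VND3207 arrays below all vehicle arrays, and 24.9% of the probes tested had that order. Without vehicle replicate 3 the difference was -1.53 and passed (limma adjusted p = 0.0326), which it did in 1 of 20 alternatives. Without any 1 other array it was from -1.36 to -0.88 (limma adjusted p from 0.124 to 0.266). The probe lies on chromosome 7 from 19888168 to 19888227 on mm9.

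Fos, the founding member of the family, overlapped between groups. Its signal was 3.77, 3.35 and 2.93 in the vehicle mice and 3.80, 3.41 and 3.67 in the VND3207 mice. The difference of 0.28 ± 0.23 (SE, n = 3 and 3) did not pass (limma adjusted p = 0.524, 95% interval -0.29 to 0.84). Because the Fos probe, at chromosome 12 from 86817900 to 86817959 on mm9, was spotted 10 times per array, the error of the array itself could be read. The SD between its spots was 0.035 to 0.061 on the 6 arrays, against an SD between mice of 0.42 in the vehicle group and 0.20 in the VND3207 group. In the vehicle group even the lowest spot of replicate 1, at 3.68, was above the highest spot of replicate 2, at 3.44, and the lowest spot of replicate 2, at 3.28, was above the highest of replicate 3, at 3.04. The vehicle mice therefore differed in Fos signal by more than the spot error, which includes neither labelling nor hybridization.

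**Figure D2:**
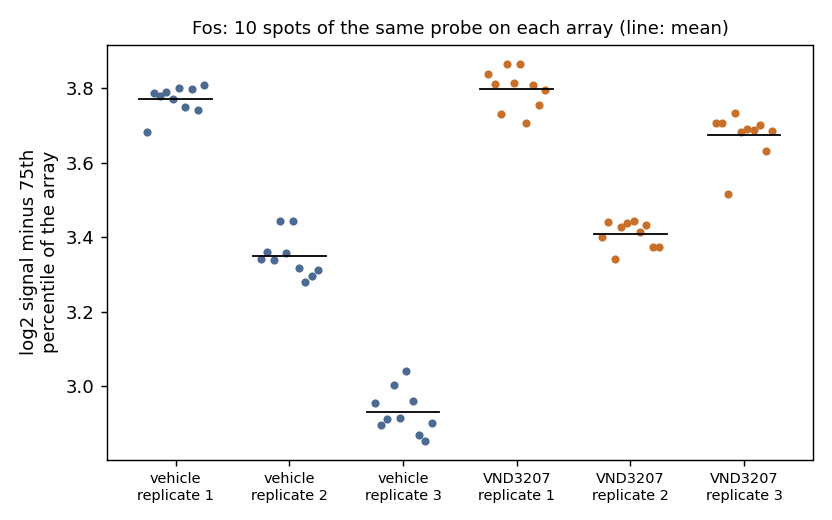
Log2 signal minus the array's 75th percentile (y axis) of the 10 spots of the Fos probe on each of the 6 arrays (x axis), vehicle in blue and VND3207 in orange, with a line for the mean of the spots. The spots of an array lie close together, and the 3 vehicle arrays are separated from each other, at 3.77, 3.35 and 2.93.

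Jun, the partner with which Fos forms AP-1, had nearly the same signal in the 3 VND3207 mice, at 3.59, 3.68 and 3.67. In the vehicle mice it was 3.89, 3.89 and 3.37, so that 2 vehicle mice lay above and 1 below all VND3207 mice. The difference was -0.07 ± 0.16 (SE, n = 3 and 3, limma adjusted p = 0.838, 95% interval -0.47 to 0.33).

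Atf3, a stress-induced factor of the same basic leucine zipper class, had the pattern of a wide vehicle group and a narrow VND3207 group more markedly. Its signal was 2.25, 1.65 and 1.01 in the vehicle mice and 1.33, 1.24 and 1.45 in the VND3207 mice. The SD was 0.62 in the vehicle group and 0.11 in the VND3207 group, and this difference in spread was not tested. The mean difference was -0.30 ± 0.31 (SE, n = 3 and 3, limma adjusted p = 0.615, 95% interval -1.04 to 0.45). Not all members had this order of spreads: the SD was larger in the VND3207 group for Egr1, Ier2, Ier3 and Dusp1, and larger in the vehicle group for the others.

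Egr1, which controls growth and repair genes, was at 1.15, 1.39 and 0.58 in the vehicle mice and at 2.04, 2.21 and 1.11 in the VND3207 mice. VND3207 replicates 1 and 2 were above every vehicle mouse, while replicate 3 lay below vehicle replicates 1 and 2. The difference of 0.75 ± 0.35 (SE, n = 3 and 3) did not pass (limma adjusted p = 0.242, 95% interval -0.10 to 1.60). Without VND3207 replicate 3 it was 1.09 (limma adjusted p = 0.0515). Without any 1 other array it was from 0.52 to 0.92 (limma adjusted p from 0.262 to 0.499). After the trend correction it was 0.52 (limma adjusted p = 0.411). VND3207 replicate 3 also stood apart in smooth muscle markers, whose summed signal was 57.9 times the 75th percentile signal there and 211 to 268 times in the vehicle mice, with up to 259 in the other VND3207 mice. All 6 smooth muscle markers were well above background on all arrays, 0 of 6 passed in limma, with 0 at an unadjusted p under 0.05, and their part in the Egr1 values was not tested. In tissue pieces, fewer cells of a type and less RNA per cell cannot be told apart.

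Nr4a1 was at 0.07, 0.35 and 0.05 in the vehicle mice and at 0.05, -0.22 and -0.02 in the VND3207 mice. The groups overlapped by under 0.01, and the difference was -0.22 ± 0.13 (SE, n = 3 and 3, limma adjusted p = 0.377, 95% interval -0.54 to 0.11). Ier2, a nuclear protein of the early response, was at -1.05, -0.66 and -0.91 in the vehicle mice and at -1.22, -1.62 and -0.93 in the VND3207 mice. It overlapped between the groups, with a difference of -0.38 ± 0.20 (SE, n = 3 and 3, limma adjusted p = 0.301, 95% interval -0.88 to 0.11). Ier3, a regulator of cell survival, was at -0.89, -0.39 and -0.57 in the vehicle mice and at -0.46, -1.10 and -0.57 in the VND3207 mice. The groups overlapped widely here, and the difference was -0.09 ± 0.22 (SE, n = 3 and 3, limma adjusted p = 0.836, 95% interval -0.62 to 0.43). Of the 6 genes below 0, Jun, Ier3, Atf3 and Nr4a1 turned above 0 with median scaling, and Jun and Ier3 did so after the trend correction.

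**Figure D3:**
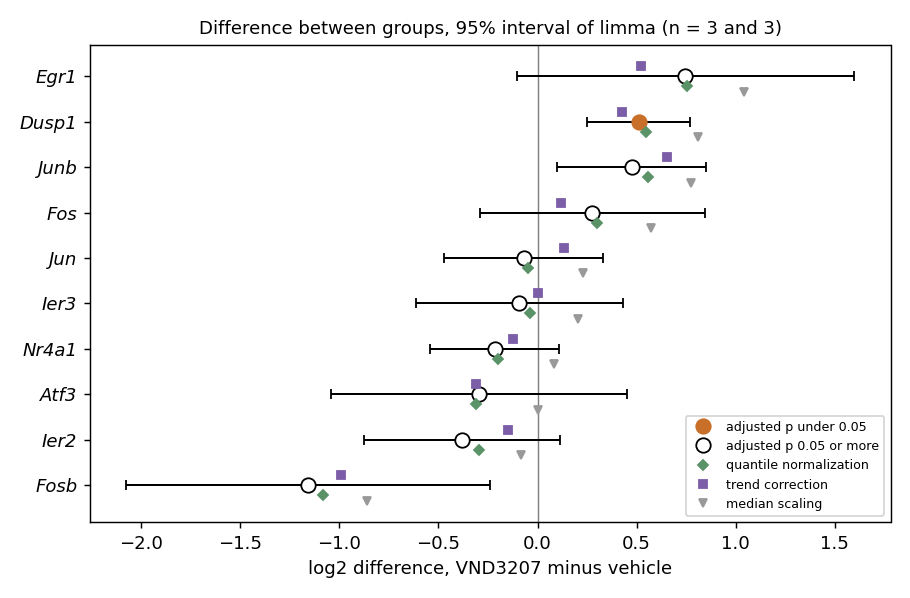
Log2 difference, VND3207 minus vehicle (x axis), of each of the 10 genes (y axis), with the 95% interval of limma (n = 3 and 3). The filled circle is Dusp1, the 1 gene past the threshold, and the small symbols are the differences with quantile normalization, median scaling and the trend correction. Fosb is farthest from 0 with a wide interval, and Dusp1 has a narrow one.

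The spread between mice of a group differed among the 10 genes. The pooled SD within groups was above the median of all probes tested, 0.20, in 7 of the 10 genes, with Jun only just above it at 0.21. By definition, as many probes lie above that median as below it. The median over the members was 0.29. The most variable were Fosb at 0.56, Egr1 at 0.51 and Atf3 at 0.45, and the least were Dusp1 at 0.096 and Nr4a1 at 0.16. One control mouse accounted for many of the lowest values. Vehicle replicate 3 had the lowest signal of all 6 mice for 6 genes, Fos, Jun, Junb, Egr1, Atf3 and Dusp1, and the lowest of the vehicle mice for 8, with Fosb and Nr4a1. The median of the members, each centred on its mean over the 6 mice, was -0.32 in this mouse and from -0.13 to 0.18 in the other 5, whereas the median over all probes in it was 0.04. Vehicle replicate 1 had the highest vehicle signal for Fos, Fosb, Junb, Atf3 and Dusp1, and vehicle replicate 2 for the other 5.

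The genes with the pattern most like the mean of the members over the 6 arrays were Kxd1, Syce2 and Grtp1, by a root mean square difference of 0.033, 0.04 and 0.042 on the log2 scale. The median of this distance over the 16738 genes compared was 0.24. These genes were picked for the smallest distances, so their place below that median was fixed by the choice. The mean pattern they were matched to was lowest in vehicle replicate 3, at -0.28.

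Around these genes, the other immediate early transcription factors had 1 of 16 measured members higher and 1 lower, with a median difference of 0.14. Beside these counts and those of the lists below stand 0.925% of all probes tested called higher and 14.6% called lower. Btg2, an antiproliferative gene, was at 2.48, 2.41 and 2.42 in the vehicle mice and at 2.76, 2.87 and 2.91 in the VND3207 mice, a rise of 0.41 ± 0.10 that passed (SE, limma adjusted p = 0.0356). Fosl1, a Fos relative, fell by 0.56 on the log2 scale (SE 0.13, limma adjusted p = 0.0328), from a signal of -3.18 to -3.05 in the vehicle mice to -3.90 to -3.56. After the trend correction neither passed, with Btg2 at 0.19 and Fosl1 at 0.02. Egr3, Egr4 and Nr4a3 did not reach the background filter. Egr2, the closest relative of Egr1 that was measured, was at 0.58 and did not pass (limma adjusted p = 0.104), though it did with quantile normalization at 0.83 (limma adjusted p = 0.0452) and not after the trend correction at 0.54 (limma adjusted p = 0.26).

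Of the feedback regulators, 1 of 18 rose and 1 fell, with a median of 0.11. The phosphatase gene Dusp7 was higher on its brightest probe, at 0.63 ± 0.15 (SE, limma adjusted p = 0.0389), while its probes reached down to -0.03. Spry2, an inhibitor of receptor tyrosine kinase signalling, fell by 1.13 on the log2 scale (SE 0.25, limma adjusted p = 0.0304) and was well above background on 2 of 3 VND3207 arrays. After the trend correction Dusp7 was at 0.51 (limma adjusted p = 0.108) and Spry2 at -0.31 (limma adjusted p = 0.478). The other 7 phosphatase genes measured beside Dusp1 and Dusp7, namely Dusp2, Dusp4, Dusp5, Dusp6, Dusp8, Dusp10 and Dusp16, were between -0.12 and 0.27 on their brightest probes, and none of those passed. A dimmer probe of Dusp8 was called at -1.11, against 0.27 on the brightest. Of these, Dusp5 turned from -0.11 to 0.72 after the trend correction and passed there (limma adjusted p = 0.0414).

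Among the 30 upstream kinases and factors, Elk1, a ternary complex factor at early gene promoters, was the 1 called on the brightest probe. Its difference was -0.53 ± 0.12 (SE, limma adjusted p = 0.0344). Of 2 Elk1 probes, 1 reached the background filter, with a mean signal of 9.08 with vehicle and 8.56 with VND3207. The epithelial marker Krt20 had 8.86 and 8.43, and what so bright an Elk1 probe detects was not tested. Of 3 Hras probes, 1 was called, and their differences ran from -1.21 to 0.05. Elk1 was at -0.04 with quantile normalization and turned to 0.19 after the trend correction. The list median was 0.02. Srf, the serum response factor gene, was at 0.05 and did not pass. Of 20 secreted, receptor and cytoplasmic early products, 0 passed in limma on their brightest probes. An unadjusted p under 0.05 was reached by 2, and the median was 0.15. The largest differences were those of Lif at -0.92 (limma adjusted p = 0.0743) and Thbs1 at 0.53 (limma adjusted p = 0.0877). A dimmer probe of Rgs2 was called at 0.63, against -0.03 on the brightest. Of 12 other basic leucine zipper partners, 0 passed in limma and 0 had an unadjusted p under 0.05. Their median was 0.08, with Maf at 0.28 and Atf7 at 0.28. Above 0 were 11 of the 12, while 58.1% of all probes tested were below 0.

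The 11 AP-1 and EGR1 target genes had a median of 0.25 and 1 member higher. This was Mmp3, the stromelysin gene, at -2.24, -2.41 and -2.30 in the vehicle mice and at -1.44, -1.77 and -1.80 in the VND3207 mice. The rise was 0.64 ± 0.13 (SE, limma adjusted p = 0.0247), and the gene passed after the trend correction too, at 0.85 (limma adjusted p = 0.0247). Plau, the urokinase gene, was at 0.05 and passed after the trend correction, at 1.09 (limma adjusted p = 0.0289), as did Sos1, a Ras activator of the upstream list, at 0.14 and 0.70 (limma adjusted p = 0.0397). The medians of all 6 lists were above 0 with quantile normalization, with median scaling and after the trend correction. The median over all probes tested was above 0 there too, at 0.05, 0.23 and 0.03, and that of the upstream list was 0.05, 0.32 and 0.004. Median scaling raised every probe alike, so medians above 0 before it had to stay so.

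**Figure D4:**
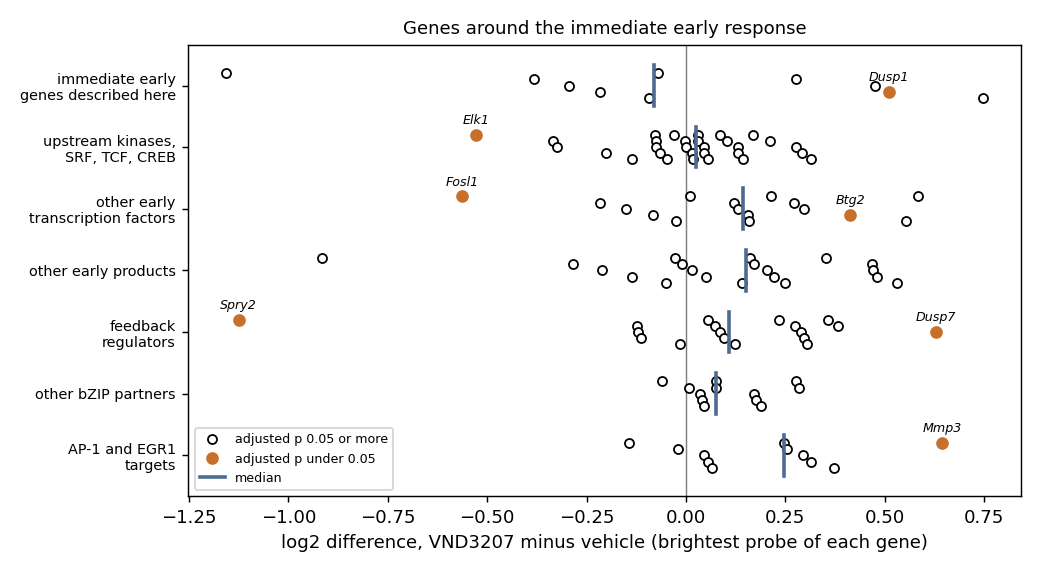
Log2 difference, VND3207 minus vehicle (x axis), on the brightest probe of each measured gene in the set described and in 6 lists around it (rows), with filled points for genes past the threshold and a bar for the median. The filled genes are Dusp1, Elk1, Fosl1, Btg2, Spry2, Dusp7 and Mmp3, and the medians of the 6 lists lie between 0.02 and 0.25.

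All values above share limits of the whole data set. Slide 1, read in scan 1, held the 3 vehicle samples, and slide 2, read in scan 2, held the 3 VND3207 samples, so slide and group cannot be told apart. The share of non-control spots well above background was 66.7% to 70.0% with vehicle and 58.8% to 61.4% with VND3207, and 0 spots were saturated. All 6 epithelial markers were well above background on every array, with a summed signal of 1285 to 1443 times the 75th percentile signal in the vehicle mice and 975 to 1098 times in the VND3207 mice, and 2 of 6 called lower, Vil1 at -0.36 and Krt20 at -0.44, which were at 0.03 and 0.0046 with quantile normalization. Over the 14 lists of cell type markers, 0 of 69 genes tested were called higher and 11 lower, or 15.9%, beside the 14.6% of all probes. The others called lower were Lyz1 (-0.65) and Itln1 (-0.41) of Paneth and goblet cells, Pecam1 (-0.56) and Kdr (-0.60) of endothelium, Itgam (-0.75) of macrophages, Tpsb2 (-0.56) of mast cells, Gfap (-1.34) of glia, and Cpa1 (-2.78) and Cel (-0.998) of pancreatic acinar cells. Other markers of the same lists went the other way: 4 of 6 endothelial and 4 of 6 macrophage markers were above 0. So were 2 of 6 markers of neurons and glia, 1 of 5 of goblet and Paneth cells, 0 of 2 of mast cells and 0 of 4 of pancreas. Of the 11, Pecam1 and Kdr were still called with quantile normalization, Lyz1, Kdr and Itgam after the trend correction, and Lyz1, Gfap and Cpa1 with median scaling. The brightest probes gave these values. Kdr had 2 probes tested and both were called, in opposite directions, the brightest at -0.60 and the other at 0.61. Of 3 Itgam probes 1 was called, the brightest, and another reached 0.55. The part of these cell types in the members' values was not tested. Precision is limited by the 3 arrays per group.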

How the data were processed

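Transcripts of jejunum from 6 mice were measured, 3 per group, with groups from the labels. The deposited intensity values are the processed Cy3 signal, background-subtracted and detrended within each array with Agilent Feature Extraction 10.7.1.1, per the file headers. The authors also deposited a table of log2 values, whose scaling is not stated and whose column medians were all 6.05. It correlated across probes with the same arrays' log2 signal at an r of 0.997 to 1.000 and served as an alternative.

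Outlier and control spots were left out, log2 signals were scaled by subtracting each array's 75th percentile, and spots of a probe were averaged. The 36102 probes well above background on at least 3 of 6 arrays entered 1 fit in limma 3.58.1 (R 4.3.3) with lmFit, eBayes and group as the term, and 2-sided p-values were adjusted by Benjamini-Hochberg over all of them. The pipeline was tested on simulated data. A gene in a list counted by its brightest probe, and ± gives limma's moderated SE.

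Probes were named by RefSeq accession (26576), current symbol (2607) or older symbol (492), and 26006 had no name. The members and lists were chosen with earlier results of these data known. Named were all members, up to 4 genes past the threshold in each list (or the 2 largest changes where none passed) and the 3 genes nearest in pattern; Egr2, Srf, Plau, Sos1, the markers and the other phosphatase genes were added once their values were known.

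The alternatives were other scalings, background corrections, filters and variance models, other ways to combine probes, a block for the replicate number, arrays left out in turn, and removal of smooth trends with spot row, column, brightness and GC content (mgcv 1.9.3). That removal (the trend correction) can also take away true differences that run along the trends. Slide and scan each hold 1 group and could not be fitted as a block.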

Additional observations from a re-analysis of the deposited data

How the results depend on the processing

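Of 20 alternatives, Dusp1 stayed above 0 in all (0.43 to 0.81) and passed in 13. It did not pass with the trend correction, with the replicate block, or without any 1 array other than VND3207 replicate 3. The number of members called higher was 2 with median scaling, and from 0 to 1 with an array left out; the number called lower was from 0 to 1 with an array left out, the 1 being Fosb. The median of the members was 0.22 with median scaling, 0.06 after the trend correction, and from -0.15 to 0.02 with an array left out.

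Deviations from the group means correlated across probes at 0.13, -0.11 and -0.05 for the shared replicate numbers 1, 2 and 3. Vehicle replicate 2 correlated best with VND3207 replicate 3, at 0.30. The deviations within a group sum to 0, so these correlations depend on each other. They cannot decide whether shared numbers pair the mice. With the replicate block Dusp1 had a limma adjusted p of 0.0618 and Egr1 of 0.0459, and 143 probes were called higher and 3410 lower, against 334 and 5259 without it.

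Over all probes, the number called higher was 931 with quantile normalization, 6625 with median scaling, 919 with the deposited value table, 662 with no filter, 1127 after the trend correction and 126 to 287 with an array left out. The number called lower was 3236 with quantile normalization, 2849 with normexp, 3176 with the deposited table, 2923 for probes well above background on all arrays, 2280 after the trend correction and 2963 to 5071 with an array left out. The cause was not tested, but filters change the number of probes tested. Higher calls were 5.97% of the calls as reported, 63.4% with median scaling and 33.1% after the trend correction.

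Of the 10 genes described, 4 changed sign, and none of these was past the threshold on either side. Jun was at 0.23 with median scaling and 0.13 after the trend correction, and from -0.24 to 0.0159 with an array left out. Ier3 was at 0.21 and 0.0036, and from -0.23 to 0.10. Atf3 was at 0.0025 with median scaling and from -0.61 to 0.0127 with an array left out, and Nr4a1 was at 0.0824 with median scaling.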
